A study of Mus musculus with 4 samples.

Results

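The fibroblast growth factor (FGF) genes of the mouse were followed across RNA sequencing libraries of cultured inner ear cells. Members were the rows whose symbol names an FGF (Fgf with a number), a receptor (Fgfr1 to Fgfr4, Fgfrl1), a sprouty (Spry1 to Spry4), a SPRED (Spred1 to Spred3), the phosphatase Dusp6 or an ETS factor of the PEA3 group (Etv1, Etv4, Etv5). The rule found 38 of the 24346 genes listed: 18 extracellular ligands, 4 intracellular FGF homologous factors, 5 receptors, 8 feedback inhibitors and 3 ETS factors. The study set primary cultures of vestibular cells (2 libraries) against primary cultures of cochlear cells (2 libraries), both from mouse inner ear, to find genes expressed differently between them. The vestibular organs sense gravity and head movement, and the cochlea senses sound. The sources used here do not give strain, age, culture time or any treatment, and nothing says that libraries of a group came from separate cultures or animals. P-values therefore measure only the spread between these libraries, which may be technical.

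FGFs are secreted proteins that bind tyrosine kinase receptors together with heparan sulfate, and the activated receptor signals through adaptors, RAS and the MAP kinase ERK. ERK signalling induces its own brakes, the sprouty and SPRED proteins and the ERK phosphatase DUSP6, and the ETS factors ETV4 and ETV5, so these genes are widely used as readouts of FGF signalling. In the inner ear, FGF3, FGF8 and FGF10 are known for inducing and shaping the otic vesicle, FGF20 for forming the organ of Corti, and FGFR3 for the balance of pillar and Deiters cells.

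Levels are in FPKM, which divides the fragments of a gene by its transcript length and the library's size, as deposited for each gene and library. FPKM is scaled by length, so levels of different genes can be set side by side. The FPKM totals ran from 479380 to 519122, and the number of genes at 1 FPKM or above from 12644 to 13094. In marker lists for cell types the cultures might hold, 2 libraries stood apart, vestibular 2 and cochlear 2. Summed epithelial markers (12 genes) stood at 1053 and 109 FPKM in vestibular 1 and 2 and at 2059 and 2463 in cochlear 1 and 2, with 11 of 12 lower in both vestibular libraries. Summed cartilage markers (10 genes) stood at 4358 FPKM in vestibular 2 and between 230 and 784 in the others. Summed macrophage markers (10 genes) stood at 22.8 FPKM in cochlear 2 and between 6001 and 7805 in the others. Fibroblast markers (10 genes) summed to 3270 and 6509 FPKM in the vestibular libraries, with 1518 and 1022 in the cochlear ones. Of the 7 hair cell markers, the transcription factor gene Atoh1 was listed at 0 in 3 of the 4 libraries while the myosin genes Myo7a and Myo6, which other cells also express, stood at 5.81 to 13.4 and 9.66 to 24.5. Of the 6 supporting cell markers, Hes5 was listed at 0 in 3 libraries and Prox1 reached at most 0.267 FPKM, while Otoa stood at 29.05 and 129 in cochlear 1 and 2 and at 9.40 and 3.61 in vestibular 1 and 2. In each of these lists 4 genes lay higher in both vestibular libraries, as did 26.9% of all genes averaging at least 1 FPKM. Those of the hair cell list were Pou4f3, Gfi1, Otof and Tmc1, at most 1.63 FPKM. Those of the supporting cell list were Sox2, Prox1, Tecta and Otog, at most 4.05 FPKM. Apart from Prox1, these genes are named after their values were seen, and only Otog averaged at least 1 FPKM. In such bulk libraries, fewer cells of a type and less RNA per cell cannot be told apart.

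The most abundant member was the receptor gene Fgfr1, at a mean of 73.9 FPKM over the 4 libraries, followed by Fgfrl1 (49.5), Dusp6 (34.3), Fgf1 (30.0) and Etv5 (22.9). Each of the 4 libraries had Fgfr1 among its 3 highest members. Fgf1 was the second highest member in cochlear 2 and ranked 4 in cochlear 1, and ranked 11 and 14 in vestibular 1 and 2. At the other end, 4 members (Fgf3, Fgf4, Fgf20 and Spry3) were listed at 0 in every library, and 11 members in all were under 1 FPKM in every library. An exact 0 need not mean silence, because the ribosomal protein gene Rpl26 is also listed at 0 in all 4 libraries.

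For the comparison, the 24 members with a mean of at least 1 FPKM were tested in a fit over all 13200 genes passing that filter (limma on log2(FPKM + 1), Benjamini-Hochberg adjustment, threshold 0.05). Log2 differences below subtract the cochlear from the vestibular mean, and for genes of low level the added 1 makes them too small. No member passed: limma called 0 of 24 members (lowest adjusted p 0.117, Fgf9), where it called 0.0303% of all genes. At an unadjusted p under 0.05 there were 8 members lower in the vestibular cultures, where 10.6% of all genes were, and 1 member higher, where 7.61% were. The groups did not overlap in 13 of the 24 members, against 55.3% of all genes. Both vestibular libraries lay below both cochlear libraries in 9 of the 24 members (28.4% of all genes) and above them in 4 (26.9% of all genes). The share of members lying below was thus 37.5%, and the share lying above 16.7%. Fgf9 and Fgf21 passed the filter only through their cochlear values, as their vestibular means were 0.563 and 0.928 FPKM. Fgf5, Fgf12 and Fgf17 lay higher in both vestibular libraries but averaged under 1 FPKM and were not tested. The difference was negative in 17 members and positive in 7, with a median of -0.30 against 0.011 over all genes tested. An exact permutation test (2-sided) of 2 libraries against 2 cannot go below p = 0.333 and could call no gene.

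Among the ligands, 3 genes stood higher in both cochlear libraries: Fgf1, Fgf9 and Fgf21. Fgf1, a ligand that binds all the FGF receptors, stood at 42.3 and 59.4 FPKM in cochlear 1 and 2 and at 12.0 and 6.13 in vestibular 1 and 2. The lowest cochlear value was thus above the highest vestibular one, and the means were 50.9 ± 12.1 and 9.05 ± 4.13 FPKM (SD, n = 2 each), a ratio of 5.62. The log2 difference was -2.41 (SE 0.37, 95% interval -3.48 to -1.34) and did not pass (limma adjusted p 0.133). Leaving out each library in turn gave differences from -2.84 to -1.98. Fgf1 was the leading ligand in the cochlear libraries, at 56.8% and 61.7% of the summed FPKM of the 18 extracellular ligands, against 26.4% and 17.0% in vestibular 1 and 2. Its closest relative Fgf2, also exported without a classical signal peptide, had 3.87 and 3.67 FPKM in the vestibular libraries, with 3.41 and 5.19 in the cochlear ones, which overlap. The ratio of Fgf1 to Fgf2 was 3.09 and 1.67 in the vestibular libraries, with 12.4 and 11.5 in the cochlear ones. Exons of Fgf2 overlap exons of Nudt6 on the other strand, and Nudt6 stood between 5.70 and 8.74 FPKM, so the Fgf2 values may hold its fragments if strand was not used in counting.

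Fgf9, a ligand of epithelia and mesothelia that signals to mesenchyme, stood at 8.38 and 7.16 FPKM in cochlear 1 and 2 and at 0.959 and 0.168 in vestibular 1 and 2. The groups did not overlap, and the cochlear mean of 7.77 ± 0.866 was 13.8 times the vestibular mean of 0.563 ± 0.560 FPKM (SD, n = 2 each). This was the largest negative log2 difference among the members tested (-2.53, SE 0.33, 95% interval -3.46 to -1.60, limma adjusted p 0.117). With a vestibular mean under 1 FPKM, Fgf9 was tested only because its cochlear values were high. The vestibular libraries themselves differed 5.72-fold, and without vestibular 2 the difference was -2.16. Of the other genes of its subfamily, Fgf16 reached at most 0.259 FPKM and Fgf20 was listed at 0 in all.

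Fgf21, a hormone-like ligand released under metabolic and protein synthesis stress, stood at 5.87 and 14.8 FPKM in cochlear 1 and 2 and at 0.709 and 1.15 in vestibular 1 and 2. All cochlear values were above the vestibular ones, although the cochlear libraries differed 2.52-fold from each other. The means were 10.3 ± 6.29 and 0.928 ± 0.310 FPKM (SD, n = 2 each), with a log2 difference of -2.44 (SE 0.48, limma adjusted p 0.171). FGF21 acts on cells that carry the co-receptor beta-klotho, whose gene Klb reached at most 0.0558 FPKM in any library. The klotho gene Kl, the co-receptor gene for FGF23, reached at most 0.403 FPKM. The other endocrine genes were low as well, Fgf23 at most 0.185 FPKM and Fgf15 at most 0.0577.

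The sequences before the start sites of Fgf9, Fgf21, Dusp6 and Fgfrl1 are shown because these genes stood higher in both cochlear libraries and belong to different branches of the pathway. Each run is the 250 bases before a RefSeq start site on GRCm38.p6, 5′ to 3′ on the gene's strand, and the windows hold no exon of the GENCODE M21 annotation. The windows of Fgf9 and Fgfrl1 lie inside the span that annotation gives the gene, which begins at 58070547 and 108692382. Capitals mark the matches, on either strand, to 4 motifs: CCGGAA (an ETS core), TGANTCA (AP-1), TGATGCAA (the ATF4 type of stress element) and CACGTG (E-box).
Fgf9 (chr14:58072436-58072685, plus strand): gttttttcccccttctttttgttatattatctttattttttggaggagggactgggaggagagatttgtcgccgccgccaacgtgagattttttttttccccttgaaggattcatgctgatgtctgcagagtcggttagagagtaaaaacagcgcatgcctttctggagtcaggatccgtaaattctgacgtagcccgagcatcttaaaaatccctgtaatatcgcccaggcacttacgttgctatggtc
Fgf21 (chr7:45615491-45615740, minus strand): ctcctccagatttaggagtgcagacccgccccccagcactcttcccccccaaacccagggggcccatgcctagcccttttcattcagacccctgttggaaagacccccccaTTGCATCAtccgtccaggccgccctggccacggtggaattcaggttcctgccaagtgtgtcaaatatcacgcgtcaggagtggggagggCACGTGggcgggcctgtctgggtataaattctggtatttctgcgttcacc
Dusp6 (chr10:99262981-99263230, plus strand): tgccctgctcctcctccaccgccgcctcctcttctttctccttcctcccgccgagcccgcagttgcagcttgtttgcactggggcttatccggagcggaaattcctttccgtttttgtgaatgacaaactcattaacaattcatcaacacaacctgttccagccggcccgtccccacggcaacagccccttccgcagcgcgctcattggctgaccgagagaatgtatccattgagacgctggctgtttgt
Fgfrl1 (chr5:108693979-108694228, plus strand): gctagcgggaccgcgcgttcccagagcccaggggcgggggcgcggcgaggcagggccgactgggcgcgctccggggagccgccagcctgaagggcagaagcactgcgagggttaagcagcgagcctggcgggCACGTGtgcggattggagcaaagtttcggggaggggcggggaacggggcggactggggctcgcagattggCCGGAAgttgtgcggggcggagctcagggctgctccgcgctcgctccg
Fgf21 held the ATF4 type of motif, read on the other strand and beginning 139 bases before the start, and an E-box beginning 50 bases before it. Across all 32851 windows of the table, 0.792% held the former and 6.02% the latter. Fgfrl1 held an ETS core beginning 48 bases before the start and an E-box beginning 118 bases before it, and 12.0% of all windows held an ETS core. Fgf9 and Dusp6 had no match, which says only that these letters are not in the windows shown. In all, 28 of the 38 members had an entry in that table, with 37 windows, of which 4 held an ETS core, 2 AP-1, 1 the ATF4 type and 2 an E-box.

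On the vestibular side, Fgf7 and Fgf18 had positive differences. Fgf7, the keratinocyte growth factor made by mesenchyme for epithelial receptors, stood at 16.9 and 5.50 FPKM in vestibular 1 and 2 and at 5.09 and 1.94 in cochlear 1 and 2. Vestibular 2 and cochlear 1 nearly met, and the libraries differed 3.07-fold within the vestibular and 2.63-fold within the cochlear group. The log2 difference was 1.35 (SE 0.67, 95% interval -0.57 to 3.27, limma adjusted p 0.376), and leaving out single libraries gave 0.62 to 2.08. Fgf18, a regulator of cartilage and bone growth, had 7.79 and 17.3 FPKM in the vestibular libraries, with 8.05 and 6.24 in the cochlear ones. Vestibular 2 was high and the other 3 libraries were close together, so that the groups overlapped (log2 difference 0.65, limma adjusted p 0.467, and 0.12 without vestibular 2). Vestibular 2 is also the library with the highest cartilage markers, at 4358 FPKM in sum against 784 in vestibular 1 and 230 and 235 in the cochlear libraries. Of the 10 cartilage genes, 6 lay higher in both vestibular libraries, beside 26.9% of all genes tested. Sox9, named here after its values were seen, did not, at 17.4 and 29.4 FPKM against 28.7 and 29.5 in the cochlear ones, and Hapln1 was at 0.151 and 0.136 FPKM against 0 in both. The part of these cells in the Fgf18 value was not tested.

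The libraries differed in which ligand led. Fgf7 led in vestibular 1 (37.2% of summed ligand FPKM), Fgf18 in vestibular 2 (47.9%) and Fgf1 in both cochlear libraries. The summed level of the 18 ligands was 45.4 and 36.0 FPKM in the vestibular libraries, with 74.6 and 96.3 in the cochlear ones. Fgf1 alone made up most of the cochlear sum. In cochlear 1 and 2, Fgf9 held 11.2% and 7.44%, Fgf21 7.87% and 15.3%, and Fgf18 10.8% and 6.48%. Fgf7, Fgf18 and Fgf1 together made up most of the vestibular sum.

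**Figure D1:**
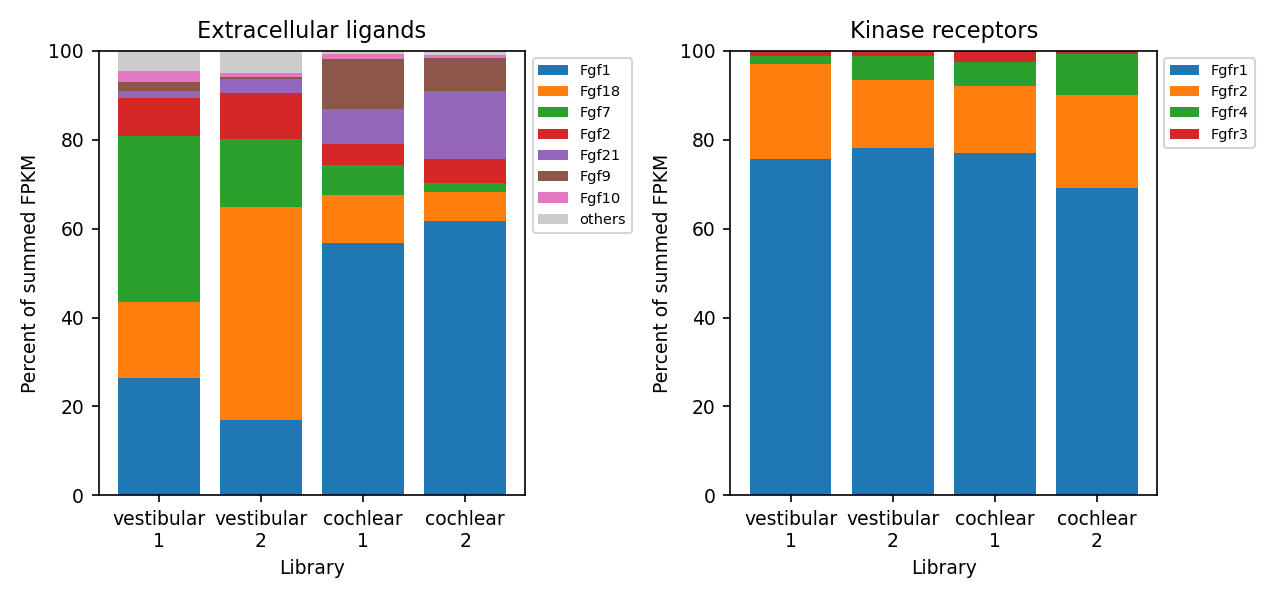
Share of each gene in the summed FPKM of the 18 extracellular FGF ligands (left) and of the 4 kinase receptors (right), in percent, for each of the 4 libraries. Fgf1 takes 56.8% and 61.7% of the ligand sum in the cochlear libraries and 26.4% and 17.0% in the vestibular ones, while Fgfr1 takes 69.2% to 78.2% of the receptor sum in every library.

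The ligands best known from otic development were low or listed at 0. Fgf3 was listed at 0 in all libraries. Fgf8 was listed at 0.118 FPKM in vestibular 2 and at 0 in the others. Fgf10 had 1.10 and 0.367 FPKM in the vestibular libraries, with 0.973 and 0.537 in the cochlear ones, with nearly equal means of 0.735 and 0.755. Fgf5, a ligand known for ending the hair growth phase, had 1.15 and 0.430 FPKM in the vestibular libraries, with 0.161 and 0.0823 in the cochlear ones. These groups do not overlap, but the gene was below the filter and was not tested. Fgf22 reached at most 1.01 FPKM and its exons overlap Rnf126 on the other strand, a gene at 20.8 to 34.5 FPKM. Fgf6 and Fgf17 reached at most 0.102 and 0.0708 FPKM, and Fgf4 was listed at 0 in all.

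**Figure D2:**
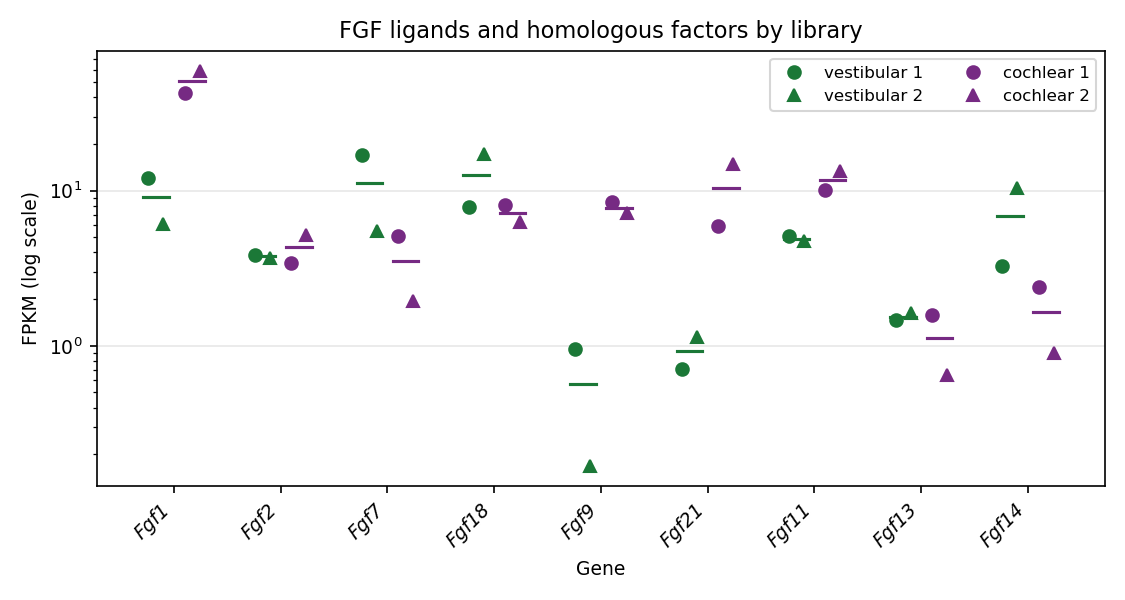
FPKM (log scale) of the 6 extracellular ligands and the 3 intracellular homologous factors with a mean of at least 1 FPKM, one point per library, with horizontal bars at the mean of each group of 2. Fgf1, Fgf9, Fgf21 and Fgf11 have both cochlear points above both vestibular points, while Fgf7 and Fgf14 have them below.

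The FGF homologous factors are not secreted and bind the cytoplasmic tails of voltage-gated sodium channels. Fgf11 stood at 10.1 and 13.3 FPKM in cochlear 1 and 2 and at 5.08 and 4.74 in vestibular 1 and 2. The vestibular pair lay within 1.07-fold of each other and the cochlear pair within 1.31-fold, and the cochlear mean was 2.38 times the vestibular one (log2 difference -1.09, SE 0.18, limma adjusted p 0.138). Fgf14, mutated in an inherited ataxia, went the other way, with 3.28 and 10.4 FPKM in the vestibular libraries, with 2.40 and 0.896 in the cochlear ones. Its groups did not overlap, but vestibular 2 was 3.18 times vestibular 1, and the log2 difference of 1.46 (SE 0.62) did not pass (limma adjusted p 0.326). Without vestibular 2 it was 0.75. Fgf13 overlapped between groups, at 1.46 and 1.62 against 1.58 and 0.650 FPKM, and Fgf12 reached at most 0.592 FPKM. Fgf11 made up 71.7% and 89.2% of the summed homologous factors in the cochlear libraries and 51.3% and 27.3% in the vestibular libraries, where Fgf14 held 33.1% and 60.0%.

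Of the receptor genes, Fgfr1 and Fgfr2 lay higher in both vestibular libraries, Fgfrl1 lay lower, and Fgfr3 and Fgfr4 overlapped. Fgfr1, the main receptor of mesenchymal cells, stood at 70.0 and 121 FPKM in vestibular 1 and 2 and at 53.9 and 50.9 in cochlear 1 and 2. Both vestibular values lay above the cochlear ones, which were close together, and the means were 95.4 ± 35.9 and 52.4 ± 2.07 FPKM (SD, n = 2 each). The log2 difference was 0.80 (SE 0.30, 95% interval -0.062 to 1.66, limma adjusted p 0.293), and without vestibular 2 it was 0.41. Fgfr2, whose splice forms serve either epithelium or mesenchyme, had 19.7 and 23.7 FPKM in the vestibular libraries, with 10.5 and 15.4 in the cochlear ones. It was the 1 member higher in vestibular cultures at an unadjusted p under 0.05 (log2 difference 0.72, SE 0.23, limma adjusted p 0.256), with differences from 0.46 to 0.98 on leaving out each library. The gene-level values do not separate the splice forms. Exons of Fgfr2 overlap an annotated exon of Ctbp2 on the same strand, and Ctbp2 stood between 18.2 and 21.5 FPKM.

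Fgfr3 and Fgfr4 were minor receptors and overlapped between groups. Fgfr3 had 1.17 and 1.72 FPKM in the vestibular libraries, with 1.77 and 0.529 in the cochlear ones. Fgfr4 stood at 1.60 and 8.30 FPKM in vestibular 1 and 2 and at 3.77 and 6.78 in cochlear 1 and 2. The vestibular libraries were thus the lowest and the highest of the 4, and the sign of the Fgfr4 difference turned from -1.23 without vestibular 2 to 0.61 without vestibular 1. Of the summed FPKM of the 4 kinase receptors, Fgfr1 held 69.2% to 78.2% and Fgfr2 15.0% to 21.3%, while Fgfr4 ranged from 1.73% to 9.21% and Fgfr3 from 0.718% to 2.54%. That sum was 92.5 and 155 FPKM in the vestibular libraries, with 69.9 and 73.7 in the cochlear ones.

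Fgfrl1 encodes a receptor-like protein that binds FGFs and heparan sulfate but has no kinase domain. It stood at 63.8 and 80.5 FPKM in cochlear 1 and 2 and at 37.3 and 16.4 in vestibular 1 and 2, opposite in direction to Fgfr1 and Fgfr2. The groups did not overlap, and the means were 72.2 ± 11.7 and 26.9 ± 14.7 FPKM (SD, n = 2 each). Its log2 difference was -1.49 (SE 0.44, 95% interval -2.76 to -0.22, limma adjusted p 0.236), and -0.92 without vestibular 2. Fgfrl1 exceeded Fgfr1 in both cochlear libraries, with ratios of 1.19 and 1.58, and lay below it in both vestibular libraries, with ratios of 0.532 and 0.136. Its ratio to Fgfr2 was 1.89 and 0.693 in the vestibular libraries, with 6.09 and 5.22 in the cochlear ones.

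**Figure D3:**
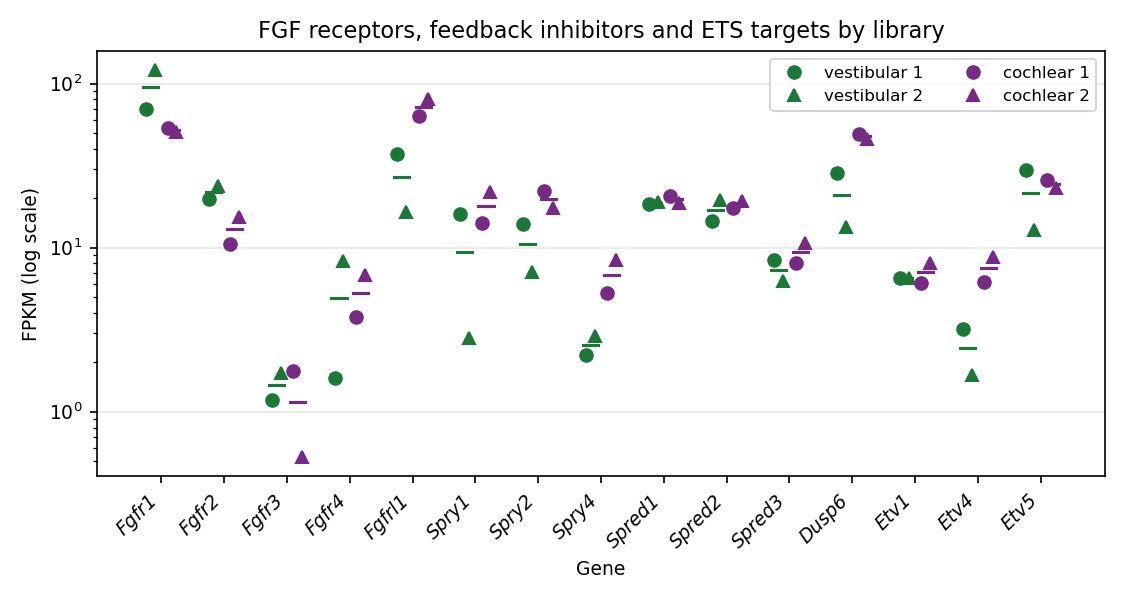
FPKM (log scale) of the 5 receptor genes, the 7 feedback inhibitors and the 3 ETS factors with a mean of at least 1 FPKM, one point per library, with horizontal bars at the mean of each group of 2. Fgfr1 and Fgfr2 have both vestibular points above the cochlear ones, Fgfrl1, Spry2, Spry4, Dusp6 and Etv4 have them below, and each of the 3 Spred genes overlaps between the groups.

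All 10 feedback and ETS genes tested had negative differences, as did 6412 of the 13200 genes tested. An unadjusted p under 0.05 was reached by 3 of them (Dusp6, Spry4 and Etv4), beside 10.6% of all genes in that direction, and 0 passed after adjustment by limma. Their median difference was -0.61, against 0.011 over all genes tested, and in 4 of the 10 both vestibular libraries lay below both cochlear ones, beside 28.4% of all genes. Vestibular 2 was the lowest library in 6 of the 10. Cochlear 2 was the lowest in 0 of the 10.

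Dusp6, the cytoplasmic phosphatase that switches off ERK, stood at 49.2 and 45.9 FPKM in cochlear 1 and 2 and at 28.6 and 13.3 in vestibular 1 and 2. The cochlear libraries agree within 1.07-fold and the vestibular ones differ 2.15-fold, and the log2 difference was -1.24 (SE 0.40, 95% interval -2.38 to -0.10, limma adjusted p 0.255). Without vestibular 2 it was -0.71. Etv4 stood at 6.20 and 8.82 FPKM in the cochlear libraries, with 3.20 and 1.68 in the vestibular ones, again with no overlap (log2 difference -1.33, SE 0.32, limma adjusted p 0.204, with a range of -1.65 to -1.002 on leaving out each library). Etv5, its relative with the same known dependence on FGF, did not follow this order. It stood at 29.9 FPKM in vestibular 1, the highest of the 4, at 12.8 in vestibular 2, and at 25.8 and 23.1 in cochlear 1 and 2. Its log2 difference was -0.30 (SE 0.44), and 0.28 without vestibular 2. Etv1 stood at 6.54 and 6.52 FPKM in vestibular and 6.05 and 8.05 in cochlear libraries, with an interval of the difference from -0.59 to 0.42.

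The sprouty genes encode membrane-associated inhibitors of the RAS pathway. Spry4 stood at 5.29 and 8.42 FPKM in cochlear 1 and 2 and at 2.22 and 2.90 in vestibular 1 and 2, with no overlap. Its log2 difference was -1.12 (SE 0.27, limma adjusted p 0.207) and kept its size when vestibular 2 was left out (-1.26). Spry2 stood at 22.1 and 17.4 FPKM in the cochlear libraries, with 14.0 and 7.07 in the vestibular ones, also with no overlap (log2 difference -0.91, limma adjusted p 0.309, and -0.46 without vestibular 2). Spry1 stood at 16.0 FPKM in vestibular 1, between the cochlear values of 14.0 and 21.7, and at 2.79 in vestibular 2. Its log2 difference of -1.20 (SE 0.83) was -0.12 without vestibular 2, so that it rested on that library. Spry3 was listed at 0 in all libraries.

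The SPRED genes, which restrain RAS by recruiting neurofibromin, each overlapped between the groups. Spred1 had 18.3 and 18.9 FPKM in the vestibular libraries, with 20.6 and 18.7 in the cochlear ones, and the 95% interval of its log2 difference ran from -0.39 to 0.24. Spred2 stood at 14.6 and 19.5 against 17.5 and 19.3 FPKM (interval -0.63 to 0.41), and Spred3 at 8.35 and 6.24 against 8.06 and 10.6 FPKM (interval -0.95 to 0.31). The summed level of the 3 genes was 41.3 and 44.6 FPKM in the vestibular libraries, with 46.2 and 48.6 in the cochlear ones. The summed sprouty genes, in contrast, stood at 32.2 and 12.8 FPKM in vestibular and 41.4 and 47.5 in cochlear libraries. Exons of Spred3 overlap Ggn on the other strand, which stood between 2.07 and 2.67 FPKM.

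**Figure D4:**
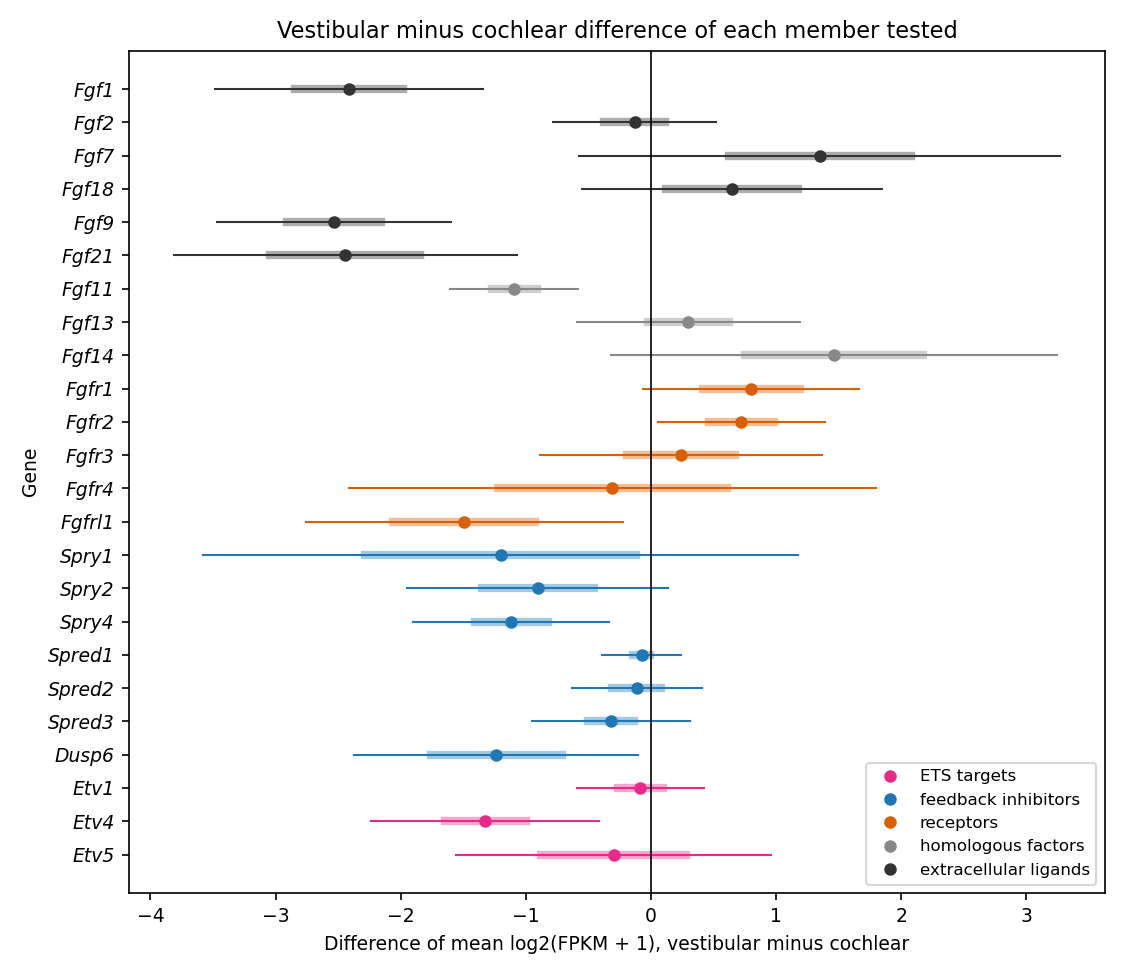
Difference of mean log2(FPKM + 1), vestibular minus cochlear, of each of the 24 members tested (points, coloured by role), with the 95% interval of limma (thin lines) and the range over leaving out each library in turn (thick bars). Fgf1, Fgf9 and Fgf21 lie furthest to the left, Fgf14 and Fgf7 furthest to the right, and no member passed after adjustment.

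Cell type markers also differed between the groups. The 9 members picked as higher in both cochlear libraries have, by that choice, the direction of the epithelial list. In that list 11 of 12 genes were lower in both vestibular libraries, beside 28.4% of all genes tested. By single library the order was not always shared. Unlike the epithelial sum, Fgf9, Dusp6 and Spry2 were higher in cochlear 1 than in cochlear 2. Fgf21 and Spry4 were higher in vestibular 2 than in vestibular 1, again unlike that sum. The others, Fgf1, Fgf11, Fgfrl1 and Etv4, had the order of that sum within both groups. The epithelial list summed to 109 to 1053 FPKM in the vestibular and 2059 to 2463 in the cochlear group, with none of its markers at 0. Its most abundant genes Krt18 and Krt8 stood at 628 and 663 FPKM in cochlear 1, 719 and 687 in cochlear 2, 305 and 297 in vestibular 1, and 11.6 and 10.5 in vestibular 2. Genes of the Schwann cell list with wider expression stood higher in cochlear cultures too, with Sox10 at 108 and 100 FPKM there against 37.7 and 15.5 in the vestibular libraries. The members picked as higher in both vestibular libraries have, by that choice, the direction of 9 of the 10 fibroblast markers. Of all genes tested, 26.9% had that direction. The 10 markers summed to 3270 to 6509 FPKM in the vestibular and 1022 to 1518 in the cochlear group, with none at 0. Unlike the fibroblast sum, Fgf7 was higher in vestibular 1 than in vestibular 2, and Fgfr2 higher in cochlear 2 than in cochlear 1. Fgfr1 and Fgf14 had the order of the fibroblast sum within both groups. The part of these cell types in the member differences was not tested. The summed macrophage markers were 6001 FPKM in cochlear 1 and 22.8 in cochlear 2. Between these libraries the 9 members higher in the cochlear cultures differed 1.07-fold (Dusp6) to 2.52-fold (Fgf21), with Etv4 at 1.42-fold and Spry4 at 1.59-fold. The part of macrophages in these values was not tested.

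Of the 38 members, 37 matched a protein-coding gene of GENCODE M21 (GRCm38, equal to mm10), and a few of them are neighbours. Fgf3, Fgf4 and Fgf15 lie in a row on the plus strand of chromosome 7, from 144838083 to 144900953, and all 3 were listed at 0 or, for Fgf15, at up to 0.0577 FPKM. Fgf6 (127015586 to 127028187) and Fgf23 (127072902 to 127081408) are neighbours on chromosome 6 and reached at most 0.102 and 0.185 FPKM. Fgf1 (38838673 to 38929472) and Spry4 (38586247 to 38601415) lie near each other on the minus strand of chromosome 18, and both stood higher in both cochlear libraries, 5.62-fold and 2.68-fold by the means. Fgf9 spans 58070547 to 58112720 on chromosome 14 (plus strand), Fgf21 45613886 to 45615490 on chromosome 7 (minus strand), Fgfr1 25513654 to 25575718 on chromosome 8 (plus strand) and Fgfrl1 108692382 to 108706924 on chromosome 5 (plus strand). The longest annotated transcript of Fgf21 has 951 nt, the shortest such length among the matched members, so that a given FPKM of Fgf21 stands for fewer fragments than that of the others.

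Among 51 other genes of the pathway, 49 were tested and limma called 0, with 7 lower and 2 higher in vestibular cultures at an unadjusted p under 0.05. These shares are 14.3% and 4.08% of the genes tested, beside 10.6% and 7.61% of all genes. Their median log2 difference was 0.043. Of the adaptors, Gab1, a docking protein that links receptors to PI3 kinase and SHP2, averaged 49.2 ± 1.07 FPKM over the cochlear pair of libraries and 18.8 ± 2.80 over the vestibular pair (SD, n = 2 each). The cochlear mean was 2.62 times the vestibular one (log2 difference -1.35, SE 0.14, limma adjusted p 0.0984). Shc1 stood at 61.6 and 59.1 FPKM in the cochlear libraries, with 77.7 and 98.9 in the vestibular ones (limma adjusted p 0.236). The kinases of the RAS and ERK cascade were even, 9 of 10 with small negative differences and a median of -0.20, and Mapk3, which encodes ERK1, stood at 131 and 130 FPKM in vestibular and 144 and 124 in cochlear libraries.

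Other inhibitors and co-receptors went both ways, with negative differences in 6 and positive ones in 5 of the 11 tested and a median log2 difference of -0.086. Il17rd, which encodes the FGF inhibitor SEF, stood at 13.3 and 21.7 FPKM in the cochlear libraries, with 7.95 and 7.46 in the vestibular ones (log2 difference -1.05, SE 0.27, limma adjusted p 0.215). Il17rd and Lrig1, an inhibitor of receptor kinases, are among the 4 pathway genes picked for the smallest p on the cochlear-high side. Lrig1 stood at 7.39 and 8.11 FPKM in cochlear and 3.48 and 4.61 in vestibular libraries (limma adjusted p 0.189). Dusp5, a nuclear ERK phosphatase gene named here after its values were seen, stood at 32.7 and 27.1 FPKM in the cochlear libraries, 13.0 in vestibular 1 and 1.09 in vestibular 2. Rasa1, a RAS inhibitor of another kind, stood slightly higher in the vestibular libraries, at 19.0 and 17.5 against 14.3 and 15.4 FPKM.

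Heparan sulfate genes, which shape the sugar chains that FGFs bind, split by gene. Hs6st2, a sulfotransferase gene, had 31.0 and 28.2 FPKM in the vestibular libraries, with 8.72 and 8.54 in the cochlear ones (log2 difference 1.67, limma adjusted p 0.0665). The syndecan gene Sdc4 went the other way, at 143 and 110 FPKM in the vestibular libraries, with 258 and 252 in the cochlear ones (log2 difference -1.02, SE 0.17, limma adjusted p 0.142). Sulf1, which encodes a sulfatase that trims these chains, was the most abundant of the other pathway genes by mean, at 221 and 258 FPKM in vestibular and 196 and 151 in cochlear libraries. In the same order, Sdc1 stood at 28.6 and 19.7 against 15.0 and 15.9 FPKM, and Sdc2 at 90.4 and 85.6 against 76.7 and 70.1. Sdc3 differed within the groups rather than between them, at 111 and 68.0 FPKM in the vestibular libraries, with 113 and 50.1 in the cochlear ones.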

How the data were processed

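RNA was extracted with TRIzol and sequenced from 4 stranded mRNA libraries, per the labels' protocols. The authors deposited FPKM values, 1 per gene symbol and library, per the file headers. Cuffdiff 2.2.1, SAMtools 0.1.18, Bowtie2 2.2.8 and TopHat2 2.1.1 were used on mm10, per the submitters' processing notes. The sources used here do not give their settings, the annotation, the use of strand or the scaling between libraries. Fragment numbers are unknown, so values carry no counting interval. Short noncoding genes shared whole-number ratios only in part (between 10 and 23 of 28 to 34 genes per pair of libraries, tolerance 0.1%), so reads were not recovered.

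The filter kept 13200 genes, those averaging 1 FPKM or more, and log2(FPKM + 1) was compared with limma 3.58.1 in R 4.3.3 (eBayes with a mean-variance trend, 2-sided, Benjamini-Hochberg over all genes kept, threshold 0.05). The fit was also run on simulated data with planted differences and independent libraries, where only the size of its mean estimates was checked. Alternatives were pseudocounts of 0.1 and 5, no filter, a mean of at least 5, median-ratio scaling, other variance models, a replicate block and leaving out each library. Positions came from GENCODE M21 on GRCm38, the assembly mm10 names (37 of 38 members matched by symbol), and promoters from RefSeq. All members are named. Of the other pathway genes, the 6 with the highest mean and, per direction, the 4 with the smallest p are named. Of each marker list, the 2 highest genes and those near 0 were eligible, and any others are marked where named. Members and lists were chosen with earlier results of these data known. Figures were drawn with matplotlib 3.10.9.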

Additional observations from a re-analysis of the deposited data

How the results depend on the processing

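The count of FGF members past the threshold was 0 under all 12 alternatives, as was that of the other pathway genes, and the lowest adjusted p of a member in any of them was 0.0831. Of the 24 members tested, 17 had the same sign under every alternative, and no sign turned outside the fits that leave out a library. The log2 difference ranged over those 4 fits from -0.27 to 0.10 for Etv1, -0.88 to 0.28 for Etv5, -0.025 to 0.62 for Fgf13, -0.37 to 0.11 for Fgf2, -0.19 to 0.67 for Fgfr3, -1.23 to 0.61 for Fgfr4 and -0.31 to 0.083 for Spred2. In fits with 1 library in a group, that library is assumed to vary like the other group.

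The counts below were added after seeing the data. Members lower in vestibular cultures at an unadjusted p under 0.05 numbered 8, against 5 with a mean of at least 5 FPKM (fewer genes tested), 3 without eBayes moderation, and 4 to 9 on leaving out each library (4 without cochlear 2). Members higher numbered 1, against 0 without moderation, 2 with the replicate block, and 0 to 3 on leaving out a library (3 without vestibular 1, 0 without cochlear 1). Members with groups apart numbered 11 to 13 in the lower and 5 to 8 in the higher direction on leaving out a library, against 9 and 4 (fewer libraries have to separate). Over all genes, 4 passed, against 2 without a filter, 0 with the replicate block and 0 to 0 on leaving out any library. The labels number the libraries 1 and 2 in each group, but the deviations of same-numbered libraries from their group means correlated at only 0.043, so the numbers were not taken as pairs. With the replicate block the lowest adjusted p of a member was 0.272. Except where named, the cause was not tested.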
